A study of Mus musculus with 12 samples.

Results

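The left ventricle of mouse hearts labelled Wnt LOF, for loss of function in the Wnt pathway, was compared with the left ventricle of control hearts. The comparison holds 6 of the 12 libraries of the series, taken by their labelled tissue and genotype: 3 control left ventricle (LV) and 3 Wnt LOF LV libraries, named below control LV 1 to 3 and WntLOF LV 1 to 3. The other 6 libraries are the right ventricles (RV) of the same 2 genotypes and enter the model only to estimate the spread and to set the LV values beside those of the RV. All animals were adult, RNA was extracted from whole ventricle with Trizol and sequenced, and the reads were counted per Ensembl gene. The labels name neither the gene or allele that was targeted, nor a Cre driver, a treatment, a strain or the cell type in which the pathway was lost. Nothing in them ties a library to an animal of its own, and each p-value thus measures the spread between libraries, which may be technical.

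Wnt ligands bind Frizzled receptors and LRP co-receptors at the cell surface. In the canonical branch this stops a complex of Axin, APC and the kinase GSK3 from marking beta-catenin for destruction, and beta-catenin then enters the nucleus and activates transcription with TCF and LEF factors. The pathway shapes the heart during development, is low in the healthy adult ventricle and has been linked to the electrical properties of heart muscle.

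No gene passed the test in the left ventricle. Of 15494 genes tested, 0 (0%) had an adjusted p under 0.05 by edgeR's quasi-likelihood test, and the smallest adjusted p was 0.999. An unadjusted p under 0.05 was reached by 442 genes (2.85%), of which 222 (1.43%) were higher and 220 (1.42%) lower in Wnt LOF, and DESeq2 gave 0 called genes and 323 at an unadjusted p under 0.05. The share of 2.85% is below the share of 0.05 expected by this test if no gene differed. The 3 control and 3 Wnt LOF libraries did not overlap for 1224 genes (7.9%), with 612 (3.95%) in each direction. With 3 libraries a group, such separation also arises where groups do not differ, so groups called apart below are a description only. Large differences were few: among the 12300 genes with a mean log2 CPM (counts scaled to 1e+06 per library, with TMM factors) of at least 1, only 18 differed by more than 1 on the log2 scale. The median standard error of a log2 fold change among those genes was 0.135. The authors' deposited table for the same comparison lists 14179 genes, of which 0 have an adjusted p under 0.05 and the smallest adjusted p is 0.841. It holds 392 of the 442 genes, and all 392 have the same sign in the authors' deposited table. Both compare the same groups, and the 442 genes were chosen by their values, so this agreement was all but fixed in advance. In the authors' own values 794 genes have an unadjusted p under 0.05. All values below are therefore descriptions of genes that did not pass the test, and a log2 fold change is Wnt LOF minus control throughout.

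Depth and labels were checked across the 6 libraries before the genes were read. Total counts, in units of 1e+06, ran from 13.3 to 19.2, and mitochondrially encoded genes took 4.62% to 7.42% of counts. The ventricular muscle markers Myh6 (34500 to 39630 CPM) and Atp2a2 (11010 to 14100 CPM) were abundant in all 6 libraries, and the atrial light chain gene Myl7 was at 0.633 CPM or less. Ddx3y, a Y-linked gene, was above 1 CPM only in the library numbered 3 of each group, so the sexes were balanced between the groups.

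WntLOF LV 1 went against its label. Wif1, a secreted Wnt inhibitor that is higher in the RV of these controls, had 2.62, 2.69 and 3.18 CPM in control LV 1 to 3, and 13.5, 1.65 and 1.63 CPM in WntLOF LV 1 to 3. The 3 control RV libraries had 12 to 18.4 CPM of Wif1, and the library labelled WntLOF RV 1 had 2.55 CPM. Kcnd2, a potassium channel of the transient outward current, had 91.2 CPM in WntLOF LV 1 against 27.8 to 44.8 CPM in the other 5 LV libraries and 83.3 to 95.8 CPM in the control RV. The water channel Aqp4 showed the same order, with 31.2 CPM in WntLOF LV 1 and 6.88 to 10.5 CPM in the other 5. For these 3 genes WntLOF LV 1 thus had levels within the control RV range and apart from the 5 other LV libraries.

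Control LV 2 went against its label in a different set of genes. In control LV 1 and 3 against WntLOF LV 2 and 3, 7 genes (among them Gm26782, Gm5514, Hsd17b7, Ifi205 and Rab27b) were separated by at least 2-fold, and these 4 libraries chose the genes. Control LV 2, which the choice did not use, lay on the Wnt LOF side for 6 of the 7, and WntLOF LV 1 also for 6 of the 7. The exception for both was Gm26782, with 4.9 CPM in control LV 2 and 4.92 CPM in WntLOF LV 1. Hsd17b7, an enzyme of sterol synthesis, had 1.65, 13.5 and 1.66 CPM in control LV 1 to 3 and 16.9, 14.4 and 26.4 CPM in WntLOF LV 1 to 3. The pseudogene Gm5514 had 11.2, 0.685 and 11 CPM in the control and 0.534, 0.856 and 0.673 CPM in the Wnt LOF libraries. Control RV 2 lay on the Wnt LOF side for 7 of the 7 genes and control RV 1 and 3 for 2 of the 7 each. The main results below are therefore also given without control LV 2 and WntLOF LV 1, a setting called the 4-library fit, in which the 6 RV libraries stay in the model. In that setting 0 of 15709 genes had an adjusted p under 0.05 by edgeR (0%), and 378 (2.41%) had an unadjusted p under 0.05. Of the 442 genes of all 6 LV libraries, 179 were under 0.05 there too.

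**Figure D1:**
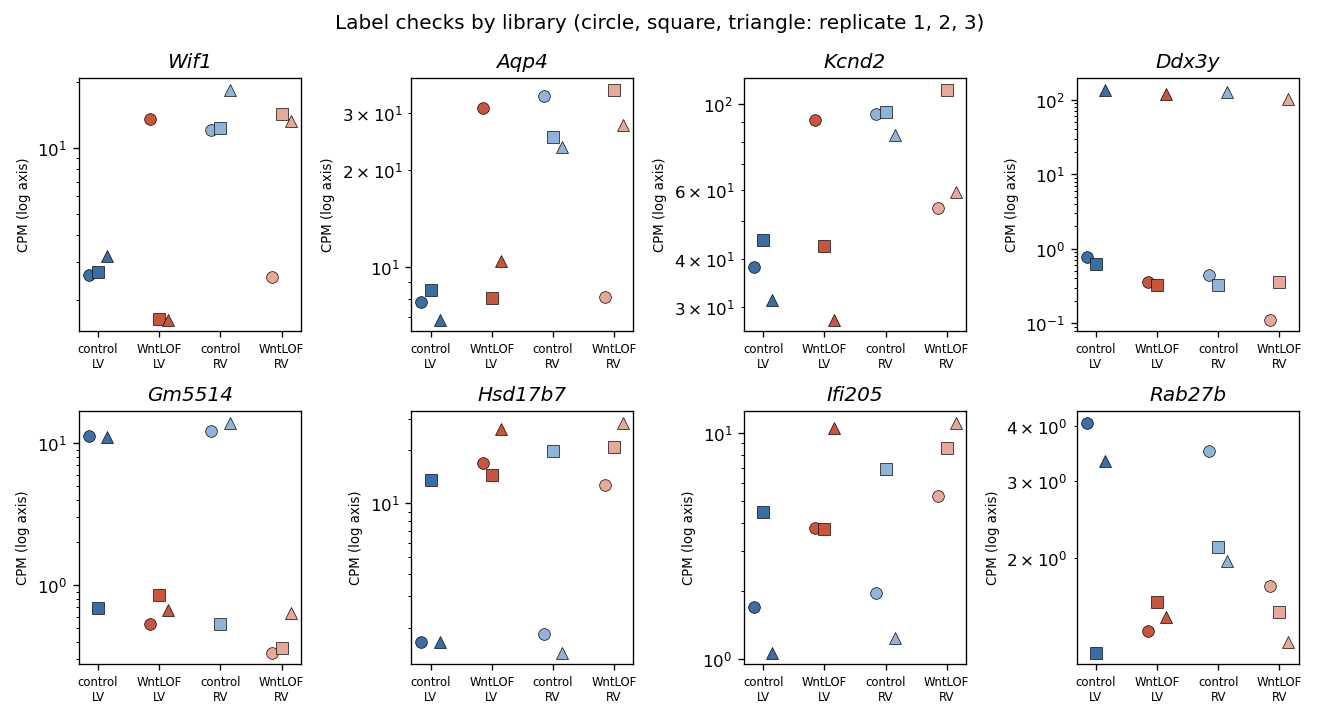
CPM on a log axis in each of the 12 libraries for 4 genes that mark the ventricle or sex (upper row) and 4 genes separated by at least 2-fold between control LV 1 and 3 and WntLOF LV 2 and 3 (lower row). Circles, squares and triangles are the libraries numbered 1, 2 and 3. WntLOF LV 1 lies with the control RV libraries for Wif1, Aqp4 and Kcnd2. Control LV 2 (square) lies on the side of the Wnt LOF libraries in the lower row, which leaves out Gm26782, where it does not.

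The pathway itself was read first at Ctnnb1 (ENSMUSG00000006932), which encodes beta-catenin. Its levels were 598, 426 and 509 CPM in control LV 1 to 3 and 395, 532 and 409 CPM in WntLOF LV 1 to 3. The groups overlapped, with WntLOF LV 2 above 2 of the 3 controls. The log2 fold change was -0.20 (SE 0.14; adjusted p 0.999 by edgeR), and -0.23 in the 4-library fit. Axin2 (ENSMUSG00000000142), a destruction complex scaffold and itself a target of beta-catenin, had 7.10, 5.11 and 6.13 CPM in the controls and 8.06, 7.77 and 3.48 CPM in Wnt LOF. Its log2 fold change was 0.07 (SE 0.31) and -0.25 in the 4-library fit, so its sign rests on the libraries included. Lef1, a nuclear partner of beta-catenin, had 3 to 14 reads per library and was too low to test.

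Across the roles of the pathway, 0 Wnt genes had an unadjusted p under 0.05 by edgeR, where 2.85% of all genes tested did. Of 25 ligands and ligand-processing genes, 10 were tested, 8 of them above 0, with a median log2 fold change of 0.22 against -0.0038 over all genes tested. Over the same 10 genes the median was 0.143 in the 4-library fit, and with no filter on low counts, which brings in more ligand genes, it was 0.06. Wnt5a, a ligand of the non-canonical branch, had 10.6, 10.1 and 9.08 CPM in the controls and 19.6, 12.4 and 11.2 CPM in Wnt LOF. The groups did not overlap, and the highest library was WntLOF LV 1. Its log2 fold change was 0.53 (SE 0.27), and 0.26 in the 4-library fit. Wls, which carries Wnt proteins to the cell surface, had 0.15 (SE 0.10), with the groups overlapping.

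Receptors were centred on no difference. Of 17 tested, 9 lay above 0 and 8 below, with a median of 0.0018. Lgr6, a receptor for R-spondins, had 46.3, 47.0 and 54.2 CPM in the controls and 53.6, 98.8 and 61.5 CPM in Wnt LOF. WntLOF LV 2 stood highest and WntLOF LV 1 lay within the controls. The log2 fold change of Lgr6 was 0.54 (SE 0.26), with 0.68 in the 4-library fit and 0.69 in the RV. The co-receptors Lrp5 (-0.03, SE 0.10) and Lrp6 (-0.02, SE 0.09) and the receptor Fzd4 (0.20, SE 0.13) overlapped between the groups. Ryk, a Wnt co-receptor with an inactive kinase domain, had 60.5, 61.5 and 59.1 CPM in the controls and 58.4, 55.6 and 52.4 CPM in Wnt LOF, a small difference without overlap (log2 fold change -0.12, SE 0.07).

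Secreted antagonists had a median of 0.0296 over 9 tested genes, 5 of them above 0. In the 4-library fit 7 of 9 lay below 0 with a median of -0.0789, and single libraries moved the median from -0.0981 (without WntLOF LV 1) to 0.356 (without control LV 3). Sost, which blocks the LRP co-receptors, was low and highest in WntLOF LV 1, with 0.206, 0.685 and 0.681 CPM in the controls and 1.60, 0.724 and 0.897 CPM in Wnt LOF (groups apart, log2 fold change 1.07, SE 0.50). Frzb, a decoy for Wnt ligands, had 8.54, 9.44 and 8.55 CPM in the controls and 6.23, 7.5 and 7.85 CPM in Wnt LOF. The groups did not overlap, with a log2 fold change of -0.30 (SE 0.20), and -0.15 in the 4-library fit. Sfrp1, another decoy, lay the other way at 0.40 (SE 0.20), with its highest level in WntLOF LV 1 (19.3 CPM) and overlapping groups. Wif1 had a log2 fold change of 1.0 (SE 0.90), which became -0.81 in the 4-library fit.

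Genes of the cytoplasmic complex and the nuclear factors lay close to 0. The 20 cytoplasmic genes had a median of -0.0157 with 9 above 0, and the 19 nuclear genes a median of 0.0229 with 12 above 0. In the 4-library fit the nuclear median was -0.0583 with 15 of 19 below 0, and the cytoplasmic median -0.0164. With single libraries left out the nuclear median lay between -0.0314 (without control LV 2) and 0.0952 (without WntLOF LV 3), and the cytoplasmic one ran from -0.0401 (without WntLOF LV 1) to 0.0224 (without control LV 3). Apc (-0.07, SE 0.08), Gsk3b (0.15, SE 0.12) and Tcf7l2 (0.13, SE 0.14) overlapped between the groups. Btrc, part of the ligase that marks beta-catenin for destruction, had 30.2 to 32.7 CPM in the controls and 33.3 to 35.3 CPM in Wnt LOF (log2 fold change 0.11, SE 0.08). Of 17 tested transcriptional targets, 10 lay above 0, with a median of 0.0484, and -0.0249 in the 4-library fit; it was -0.0497 without WntLOF LV 2. Tnfrsf19, a target with the highest log2 fold change among them (0.74, SE 0.40), had 9.01 CPM in WntLOF LV 1 and 3.04 to 4.54 CPM in the other 5 libraries. Ccnd1, a cell cycle target, had -0.15 (SE 0.27).

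**Figure D2:**
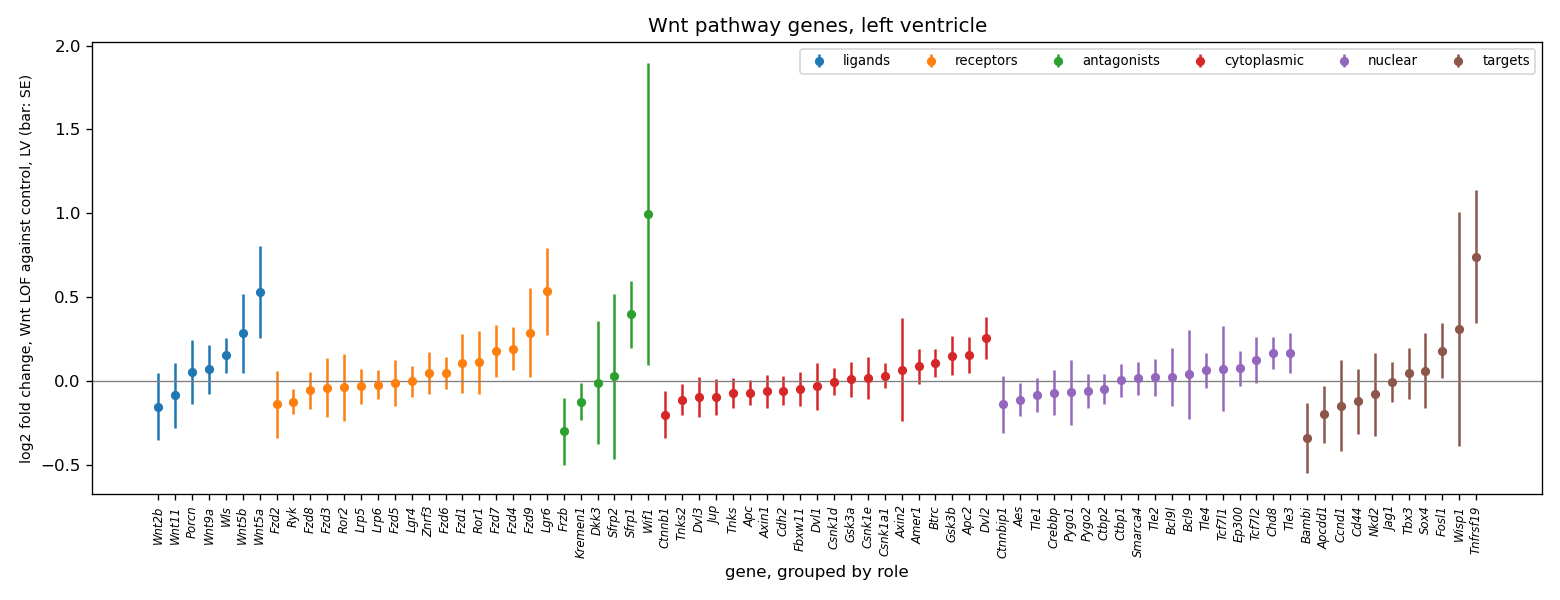
Log2 fold change of Wnt LOF against control in the LV (points) with its standard error (bars) for the 79 Wnt pathway genes with a mean log2 CPM of at least 1, grouped by role and ordered by value within a role. Most bars cross 0, and the widest belongs to Wif1, whose level in WntLOF LV 1 was 13.5 CPM.

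Since no gene was called, the genes described next are those with the smallest unadjusted p among those with non-overlapping groups and a mean log2 CPM of 1 or more, 12 in each direction. They were chosen by these values, so their fold changes and p-values are a description. The 24 log2 fold changes ran from 0.30 to 0.95 in size. All 24 kept their sign in the 4-library fit, a result that the choice of non-overlapping groups all but fixed in advance. In that fit 22 had an unadjusted p under 0.05 by edgeR, but its 4 LV libraries were also among those that chose the genes. Neither count is a check on the 24 genes.

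Ednrb, the endothelin receptor type B, had the smallest p among these genes. Its levels were 34.9, 24.4 and 38.5 CPM in control LV 1 to 3 and 17.0, 21.6 and 23.3 CPM in WntLOF LV 1 to 3. Control LV 2 was the lowest control and lay just above the highest Wnt LOF library. The means were 32.6 ± 7.32 (SD, n = 3) and 20.6 ± 3.30 (SD, n = 3) CPM. In log2 terms the fold change was -0.66 (SE 0.15; unadjusted p 0.000867 and adjusted p 0.999 by edgeR), and -0.71 in the 4-library fit. Ednra, the other endothelin receptor, had -0.26 (SE 0.17) with overlapping groups, and the ligand gene Edn1 had 0.23 (SE 0.23). These 2 genes fall outside the rule and were named after their values were seen.

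Among the 12 lower genes, Myl12a and Tmod3 belong to the actin and myosin cytoskeleton. Myl12a, a regulatory light chain of non-muscle myosin, had 347, 317 and 297 CPM in the controls and 212, 218 and 278 CPM in Wnt LOF. The groups were apart, with WntLOF LV 3 nearest to the controls, and the log2 fold change was -0.44 (SE 0.12). Tmod3, which caps the slow-growing end of actin filaments, had 78.5, 68.1 and 68.0 CPM in the controls and 51.3, 56.8 and 57.3 CPM in Wnt LOF (log2 fold change -0.38, SE 0.12). Rras, a small GTPase related to Ras, had 22.3, 19.4 and 19.7 CPM in the controls and 14.3, 14.4 and 16.9 CPM in Wnt LOF (-0.43, SE 0.10). The cytoskeletal theme of Myl12a and Tmod3 was seen after the genes were ranked and was not tested.

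Other lower genes act in muscle membranes, lipid storage and matrix. Popdc3, a cAMP-binding membrane protein of muscle, had 24.6, 25.6 and 24.8 CPM in the controls and 16.3, 20.7 and 20.0 CPM in Wnt LOF. The 3 controls lay close together, and WntLOF LV 1 was lowest. Plin2, which coats lipid droplets, had 84.5, 74.6 and 74.3 CPM in the controls and 69.7, 54.8 and 63.3 CPM in Wnt LOF, with a log2 fold change of -0.31 (SE 0.10). Olfml2b, a secreted matrix protein, had 36.9, 26.8 and 28.7 CPM in the controls and 21.4, 23.8 and 21.2 CPM in Wnt LOF (-0.48, SE 0.14). The remaining lower genes were the long RNA A930005H10Rik (-0.86, SE 0.21), Cpne8 (-0.41, SE 0.12), the spindle gene Haus8 (-0.49, SE 0.15), Irx2 (-0.81, SE 0.26) and the recombination factor Sfr1 (-0.30, SE 0.10).

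Irx1 and Irx2 are neighbouring genes for Iroquois transcription factors. Irx2 had 9.68, 6.91 and 8.77 CPM in the controls and 3.38, 5.2 and 5.83 CPM in Wnt LOF. Irx1 had 14, 9.81 and 11.9 CPM in the controls and 2.85, 7.5 and 7.29 CPM in Wnt LOF. Both were lowest in WntLOF LV 1, the library with high levels of the RV-enriched genes, and the groups were apart for each. The log2 fold change of Irx1 was -1.02 (SE 0.42), and in the 4-library fit Irx1 had -0.81 and Irx2 -0.74. The other tested family members overlapped between the groups, with 0.18 (SE 0.19) for Irx3, 0.08 (SE 0.15) for Irx4 and -0.10 (SE 0.28) for Irx5. Irx4 was named after its value was seen.

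Among the 12 higher genes, Pms1, a DNA mismatch repair gene, had the smallest p. Its levels were 5.15, 5.91 and 5.45 CPM in the controls and 7.95, 8.16 and 7.07 CPM in Wnt LOF, with a log2 fold change of 0.49 (SE 0.12; unadjusted p 0.00151 by edgeR). Ano4, a member of the anoctamin family of membrane proteins, had 14.6, 19.4 and 16.6 CPM in the controls and 22.8, 22.6 and 22.8 CPM in Wnt LOF. Control LV 2 was the highest control for both genes, and the 3 Wnt LOF libraries were almost level for Ano4. Its log2 fold change was 0.43 (SE 0.12), and 0.54 in the 4-library fit. Klhl3, an adaptor of a ubiquitin ligase that acts on WNK kinases, had 6.12, 8.54 and 6.88 CPM in the controls and 10.4, 10.9 and 9.42 CPM in Wnt LOF (0.51, SE 0.15). Slc7a2, a transporter of cationic amino acids, had 5.46, 6.75 and 7.79 CPM in the controls and 11.9, 8.29 and 8.64 CPM in Wnt LOF (0.54, SE 0.17). WntLOF LV 1 was the highest library for Slc7a2, and its value in the 4-library fit was 0.36.

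Lars2, the mitochondrial leucyl-tRNA synthetase, had 27.5, 46.2 and 40.8 CPM in the controls and 114, 53.2 and 53.0 CPM in Wnt LOF. For Lars2 the log2 fold change was 0.95 (SE 0.30) and 0.64 in the 4-library fit. Gm42418 and Mir6236, genes that resemble ribosomal RNA in sequence, were also highest in WntLOF LV 1, at 494 CPM against 77.8 to 165 CPM in the other 5 LV libraries and at 37.1 CPM against 6.79 to 18.6 CPM. Their part in the value of Lars2 was not tested. The other higher genes were Lzts3 (0.38, SE 0.11), Gm17203 (0.80, SE 0.23), the matrix gene Emid1 (0.94, SE 0.28), Zfp763 (0.50, SE 0.15), stannin, Snn (0.36, SE 0.11), and Reps2 (0.44, SE 0.15), an endocytosis gene. Emid1 had 1.21 to 1.65 CPM in the controls and 2.11 to 3.31 CPM in Wnt LOF, so its fold change rests on few reads.

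**Figure D3:**
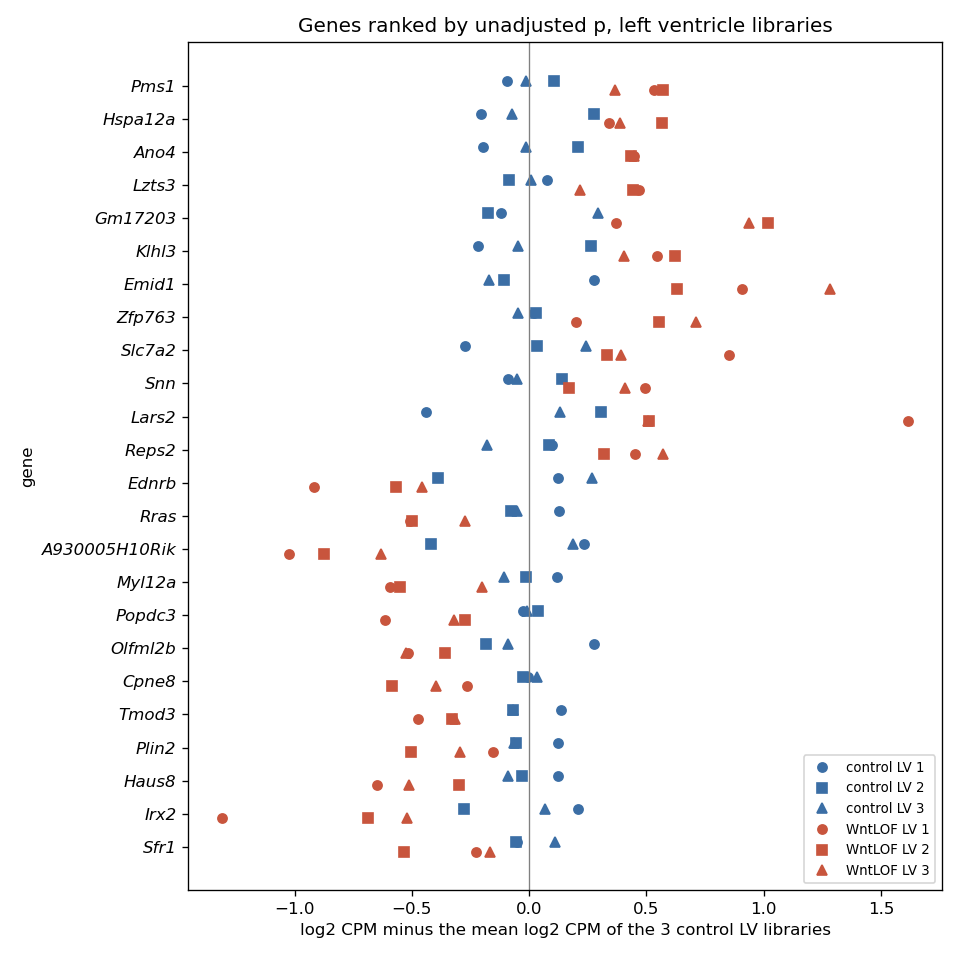
Log2 CPM minus the mean log2 CPM of the 3 control LV libraries, for the 24 genes with the smallest unadjusted p, with blue symbols for control and red for Wnt LOF (circle, square and triangle for libraries 1, 2 and 3). The groups are apart for every gene because the choice required it; WntLOF LV 1 lies far from the other Wnt LOF libraries for Lars2 and Irx2.

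The RV fold changes did not choose the 24 genes, but the RV libraries entered the estimate of the spread behind their ranking. The library labelled WntLOF RV 1 is also in doubt, since its Wif1 (2.55 CPM), Aqp4 (8.11 CPM) and Kcnd2 (54.2 CPM) lay below the control RV range. Kcnd2 in WntLOF RV 3 (59.5 CPM) lay below that range too. In the RV 18 of the 24 had the same sign as in the LV, and the share over all genes was not counted. By edgeR 5 of the 24 had an unadjusted p under 0.05 in the RV, while over all genes tested 2.7% did. The LV and RV p-values rest on 1 shared estimate of the spread, so the RV is not an independent look. The labels do not say whether the 2 ventricles came from the same hearts, and if they did the RV is not independent for that reason too. Hspa12a had 30.9 to 33.6 CPM in the control RV and 41.7 to 47.1 CPM in the Wnt LOF RV, with a log2 fold change of 0.44 (SE 0.12) beside 0.42 (SE 0.12) in the LV. Ano4 had 0.50 (SE 0.12) in the RV, Olfml2b -0.46 (SE 0.14), Plin2 -0.40 (SE 0.10) and A930005H10Rik -0.60 (SE 0.20). For Hspa12a, Ano4 and Plin2 the libraries WntLOF RV 2 and 3 lay on the same side of all control RV libraries as WntLOF RV 1. Pms1 lay the other way, with 8.98 to 9.27 CPM in the control RV and 7.28 to 8.24 CPM in the Wnt LOF RV, a log2 fold change of -0.22 (SE 0.12). Myl12a was level in the RV (0.01, SE 0.12).

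The difference between the 2 ventricles was tested for every gene with an interaction term. By edgeR 0 of 15494 genes (0%) had an adjusted p under 0.05 for the LV minus the RV effect, the smallest adjusted p was 1, and 312 (2.01%) had an unadjusted p under 0.05. Of the 24 genes, 9 were among the 312, but the LV effect that chose them is part of the interaction. No difference can therefore be called particular to the left ventricle. Of the 1224 genes whose LV groups did not overlap, 60 were also apart in the RV in the same direction and 44 in the opposite one, while 7.56% of all genes tested were apart in the RV (3.61% higher and 3.94% lower).

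**Figure D4:**
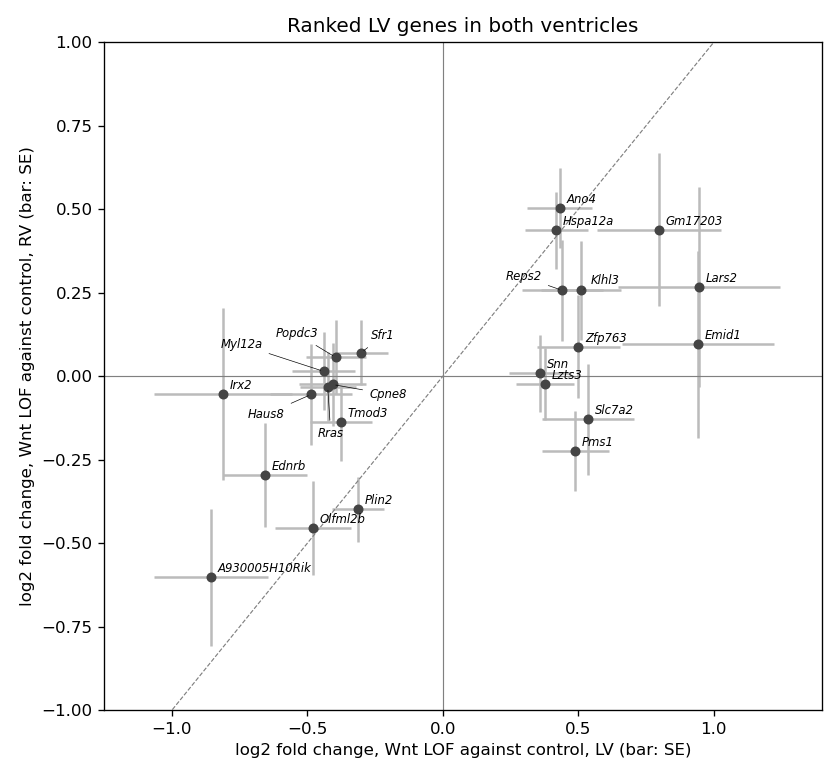
Log2 fold change of Wnt LOF against control in the LV (horizontal, bars are SE) and the RV (vertical, bars are SE) for the 24 genes with the smallest LV p, with a dashed line of equal values. Ano4, Hspa12a, Plin2 and Olfml2b lie near the line, while Pms1 and Slc7a2 lie on the other side of 0 in the RV.

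Heat shock proteins are chaperones that keep other proteins folded, and many are induced together under stress by the factor Hsf1, which binds repeats of the letters GAA and TTC. Of 30 listed genes 30 were tested, and 25 lay below 0, with a median log2 fold change of -0.0779, where 50.9% of all genes tested lay below 0. By edgeR 4 lower members and 1 higher had an unadjusted p under 0.05, where 1.42% of all genes tested were lower and 1.43% higher. None was called. The 250 bases before the transcription start of 3 members are shown. They were chosen to cover 2 lower genes and the 1 higher gene among the members with an unadjusted p under 0.05 by edgeR. They come from RefSeq (GRCm38.p6), read 5′ to 3′ on the gene's strand, and capitals mark the letters GAANNTTC, a palindrome that reads alike on both strands, or TTCNNGAA.

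Hspa1a, chr17:34972157-34972406, minus strand: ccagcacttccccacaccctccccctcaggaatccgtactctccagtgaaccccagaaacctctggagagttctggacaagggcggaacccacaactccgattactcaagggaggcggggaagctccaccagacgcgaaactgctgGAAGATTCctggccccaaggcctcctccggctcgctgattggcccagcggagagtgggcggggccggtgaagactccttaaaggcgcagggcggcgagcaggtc
Hspb1, chr5:135887669-135887918, plus strand: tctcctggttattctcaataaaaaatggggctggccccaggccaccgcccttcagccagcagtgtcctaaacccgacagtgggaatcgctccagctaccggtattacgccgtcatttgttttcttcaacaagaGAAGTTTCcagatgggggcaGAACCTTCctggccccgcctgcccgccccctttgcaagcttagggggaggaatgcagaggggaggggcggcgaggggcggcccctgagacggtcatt
Hspa12a, chr19:58943673-58943922, minus strand: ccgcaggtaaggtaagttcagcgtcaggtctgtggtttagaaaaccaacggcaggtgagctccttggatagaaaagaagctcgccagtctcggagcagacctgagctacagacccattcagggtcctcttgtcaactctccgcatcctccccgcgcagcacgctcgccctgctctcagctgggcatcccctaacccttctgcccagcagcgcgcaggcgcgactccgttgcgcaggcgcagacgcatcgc

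GAANNTTC occurs 1 time in the Hspa1a window and 2 times in that of Hspb1, and neither motif occurs in the window of Hspa12a, the first of 2 that the table lists. Among all 32851 windows of the same length in the table, 12.8% hold either motif, and among 24 of the 30 tested heat shock genes that had a window, 8 did. A match is a description of letters only.

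Hspb1, a small heat shock protein, had 55.0, 42.6 and 37.3 CPM in the controls and 27.9, 35.8 and 33.1 CPM in Wnt LOF. The groups were apart, and control LV 1 was the highest library. Its log2 fold change was -0.48 (SE 0.17), and -0.43 in the 4-library fit. Hspa1a, an inducible chaperone of the Hsp70 family, was low, with 1.80, 0.738 and 0.681 CPM in the controls and 0.474, 0.593 and 0.505 CPM in Wnt LOF. Its neighbour Hspa1b, whose window differs from that of Hspa1a at 3 of 250 bases, had 3.50, 2.48 and 1.51 CPM in the controls and 1.60, 1.25 and 0.785 CPM in Wnt LOF, with overlapping groups. The sources used here do not state how reads shared between these near-identical genes were counted, and their separate values (-1.06, SE 0.44, and -1.06, SE 0.45) are uncertain.

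Hspa12a, a distant Hsp70 relative, had the opposite sign. Its levels were 28.4, 39.6 and 31.1 CPM in the controls and 41.5, 48.4 and 42.8 CPM in Wnt LOF, with control LV 2 the highest control. The log2 fold change was 0.42 (SE 0.12) and 0.62 in the 4-library fit. Hsp90aa1, the inducible Hsp90, had -0.43 (SE 0.22) with groups apart, and Cryab, a small heat shock protein of muscle, had -0.25 with groups apart. The constitutive Hspa8 ran from 63.3 to 246 CPM within the 6 libraries and did not separate them. In the 4-library fit 21 of 30 members lay below 0 and the median was -0.0723, and without WntLOF LV 2 alone it was -0.157.

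Among stress genes of the endoplasmic reticulum the groups were apart for 3 of 26 tested, and among immediate early genes for 1 of 25, where 7.9% of all genes were. Atf3, a stress-induced transcription factor in both lists, had 5.25, 3.43 and 2.27 CPM in the controls and 2.19, 1.78 and 1.51 CPM in Wnt LOF (log2 fold change -1.01, SE 0.38). Control LV 1 was highest, and control LV 3 lay just above WntLOF LV 1. Herpud1, part of the degradation machinery of the endoplasmic reticulum, had 423, 404 and 437 CPM in the controls and 367, 331 and 339 CPM in Wnt LOF (-0.29, SE 0.12). Of 26 tested genes of the unfolded protein response, 17 lay below 0 (median -0.0493), and leaving out control LV 3 gave -0.0966 and leaving out control LV 1 gave 0.0237. Of 25 immediate early genes, 19 lay below 0 (median -0.0971, and -0.135 in the 4-library fit), and the median without control LV 1 was -0.0333. Atf4, which drives the amino acid response, had -0.29 (SE 0.13) with overlapping groups.

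Endothelial markers lay below 0 for 18 of 20 genes, with a median of -0.122. Pecam1, an adhesion protein of vessel lining, had 189, 181 and 192 CPM in the controls and 139, 181 and 168 CPM in Wnt LOF, and Aqp1, a water channel of capillaries, had 665, 509 and 611 CPM and 511, 476 and 446 CPM. WntLOF LV 2 nearly reached the controls for Pecam1, and WntLOF LV 1 overlapped control LV 2 for Aqp1. Values of the log2 fold change were -0.20 (SE 0.09) for Pecam1, which was 0.03 in the RV, and -0.32 (SE 0.12) for Aqp1, which was -0.44 in the RV. The 20 genes summed to 3132 to 3504 CPM in control and 2832 to 3189 CPM in Wnt LOF, where the lowest sum was that of WntLOF LV 1. Without WntLOF LV 1 the median was -0.0523, and without control LV 2 as well it was -0.108. Vwf, a clotting factor of the same cells, lay the other way (0.31, SE 0.24), with 200 CPM in WntLOF LV 1. In whole ventricle fewer cells of a type and less RNA per cell cannot be told apart.

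Potassium and pacemaker channels set how the heart muscle cell repolarises. Of 35 tested subunits, 28 lay above 0, where 49.1% of all genes did, and the median was 0.117. Kcnj5, a subunit of the acetylcholine-gated channel, had 99.6, 111 and 100 CPM in the controls and 117, 113 and 126 CPM in Wnt LOF. The groups were narrowly apart, with a log2 fold change of 0.20 (SE 0.08) and 0.26 in the 4-library fit. Its partner Kcnj3 had 0.35 (SE 0.18), with the highest level, 80.0 CPM, in WntLOF LV 1. Kcnd2 had 0.50 (SE 0.41) and 0.03 in the 4-library fit, Kcnd3 0.17 (SE 0.14), Kcnip2 0.12 (SE 0.13), Kcnj2 0.16 (SE 0.14), Kcna5 -0.09 (SE 0.33) and the pacemaker channel gene Hcn4 0.01 (SE 0.33). The channel median was 0.0226 without WntLOF LV 1 and 0.0776 in the 4-library fit. Cacna1c, the pore of the L-type calcium channel, had 0.10 (SE 0.12), and the connexin gene Gja1 had 0.09 (SE 0.12).

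Muscle genes lay slightly lower or near 0. Actc1, the cardiac actin gene, had 8069, 8890 and 7107 CPM in the controls and 6195, 6715 and 6922 CPM in Wnt LOF. Every Wnt LOF library was below every control, the log2 fold change was -0.28 (SE 0.10), and it was -0.16 in the 4-library fit. In the RV Actc1 had 0.24 (SE 0.10), and its LV minus RV interaction had an unadjusted p of 0.0032 by edgeR and an adjusted p of 1. Over 29 sarcomere genes 20 lay below 0, and the median of -0.0896 became -0.0183 in the 4-library fit and -0.141 without WntLOF LV 3. Myh6 (0.04, SE 0.09), Myh7 (0.12, SE 0.13), Ryr2 (0.07, SE 0.13), Atp2a2 (0.16, SE 0.13) and Pln (-0.08, SE 0.10), which encode the motor and the calcium cycle of the muscle cell, overlapped between the groups.

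The sodium pump and calcium regulators held a few members with an unadjusted p under 0.05 by edgeR, where 2.85% of all genes tested had one. Fxyd5 and Fxyd6 encode small membrane proteins that regulate the sodium pump. Fxyd5 had 11.4, 8.44 and 11.3 CPM in the controls and 7.41, 8.43 and 6.79 CPM in Wnt LOF, so control LV 2 and WntLOF LV 2 nearly met, and the log2 fold change was -0.46 (SE 0.16). Fxyd6 had 35.4, 22.8 and 36.4 CPM in the controls and 18.0, 19.8 and 25.2 CPM in Wnt LOF, with control LV 2 inside the Wnt LOF range (-0.58, SE 0.19, and -0.67 in the 4-library fit). S100a1, a calcium sensor of muscle, had -0.46 (SE 0.21) with overlapping groups, and Rcan1, an inhibitor of calcineurin, had -0.20 (SE 0.09) with groups apart. Of 11 tested pump genes 6 lay below 0, and of 26 calcium-handling genes 17 did, with medians of -0.0431 and -0.0369. The pump median was 0.0119 without control LV 1.

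Natriuretic peptides and most of the named cardiac transcription factors overlapped between the groups; Irx1 and Irx2, described above, were apart. Nppb, a peptide of stretched muscle, had 105, 50.1 and 33.4 CPM in the controls and 8.48, 42.7 and 45.5 CPM in Wnt LOF. WntLOF LV 1 was lowest, below the 10.7 to 19.4 CPM of the control RV libraries, and the log2 fold change was -0.97 (SE 0.78). Nppa had 0.18 (SE 0.60). Gata4 (0.10, SE 0.10), Tbx5 (0.12, SE 0.22) and Hey2 (0.10, SE 0.24) overlapped between the groups.

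Nuclear genes of the respiratory chain lay below 0 for 33 of 40 members, with a median of -0.0884. The 40 genes were low in WntLOF LV 1 and 2 and control LV 3 and high in control LV 1 and WntLOF LV 3, with median deviations from the LV mean of -0.155, -0.268, -0.141, 0.193 and 0.243. In the 4-library fit 25 lay below 0 and the median was -0.0213, while it ran from -0.272 without WntLOF LV 3 to 0.0155 without WntLOF LV 2. Ndufs7, a complex I subunit, had 380, 346 and 309 CPM in the controls and 242, 264 and 319 CPM in Wnt LOF, with overlap at WntLOF LV 3. Ribosomal protein genes split the libraries in the same way, with 0.259, 0.06 and -0.164 in the controls and -0.157, -0.163 and 0.198 in Wnt LOF.

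Notch signalling, which uses direct contact between cells, held members in both directions. Rbpj, the DNA-binding partner of activated Notch, had 9.26, 9.33 and 9.46 CPM in the controls and 10.9, 12.2 and 12.8 CPM in Wnt LOF, with groups apart and a log2 fold change of 0.36 (SE 0.14). Lfng, a glycosyltransferase that tunes Notch, had 0.33 (SE 0.14) with groups apart, and its RV value was 0.28 (SE 0.14). Hes1, a Notch target, had -0.35 (SE 0.15) with overlapping groups. Over 17 genes 12 lay below 0, with a median of -0.0916 that ran from -0.176 without WntLOF LV 2 to -0.0168 without control LV 1.

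Other cell types and programmes gave medians that moved with single libraries. Red blood cell genes had a median deviation of -0.714 in WntLOF LV 1 and 0.736 in WntLOF LV 3, and cell cycle genes had -0.586 in WntLOF LV 1 against 0.18 in WntLOF LV 2 and 3. Macrophage markers had a median log2 fold change of 0.0508, and 0.22 in the 4-library fit, with summed levels of 309.7 to 355.3 CPM in control and 318.3 to 373.6 CPM in Wnt LOF. Interferon-stimulated genes went from -0.0389 to 0.151 and stress and remodelling genes from -0.152 to 0.0155 in the 4-library fit. Fibroblast (0.0533), mural (-0.0442) and fatty acid oxidation genes (-0.0031) had medians near 0. Further list members had an unadjusted p under 0.05 by edgeR. Those with groups apart were the hypoxia-responsive genes Ankrd37 (-0.60, SE 0.25) and Ndrg1 (-0.25, SE 0.11), the ribosomal gene Rpl10a (-0.39, SE 0.15), the skeletal troponin gene Tnnt3 (-0.75, SE 0.32) and the Schwann cell gene Cdh19 (0.35, SE 0.15). Cdh19 was highest in WntLOF LV 1 (14.7 CPM) and had 0.06 in the 4-library fit. Those with overlapping groups were Pfkfb3, a glycolytic regulator (0.47, SE 0.16), Wt1 (-0.56, SE 0.22), Smad1 (-0.35, SE 0.16), Ly6c1 (-0.34, SE 0.15), Lmod2 (-0.26, SE 0.12), Col16a1 (0.33, SE 0.13), Hlf (0.25, SE 0.11) and Esrra (0.20, SE 0.08). Wt1 marks the epicardium, and the 7 tested epicardial markers had a median of 0.604 with 4 above 0, and leaving out control LV 1 gave -0.114 and leaving out control LV 3 gave 1.01.

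**Figure D5:**
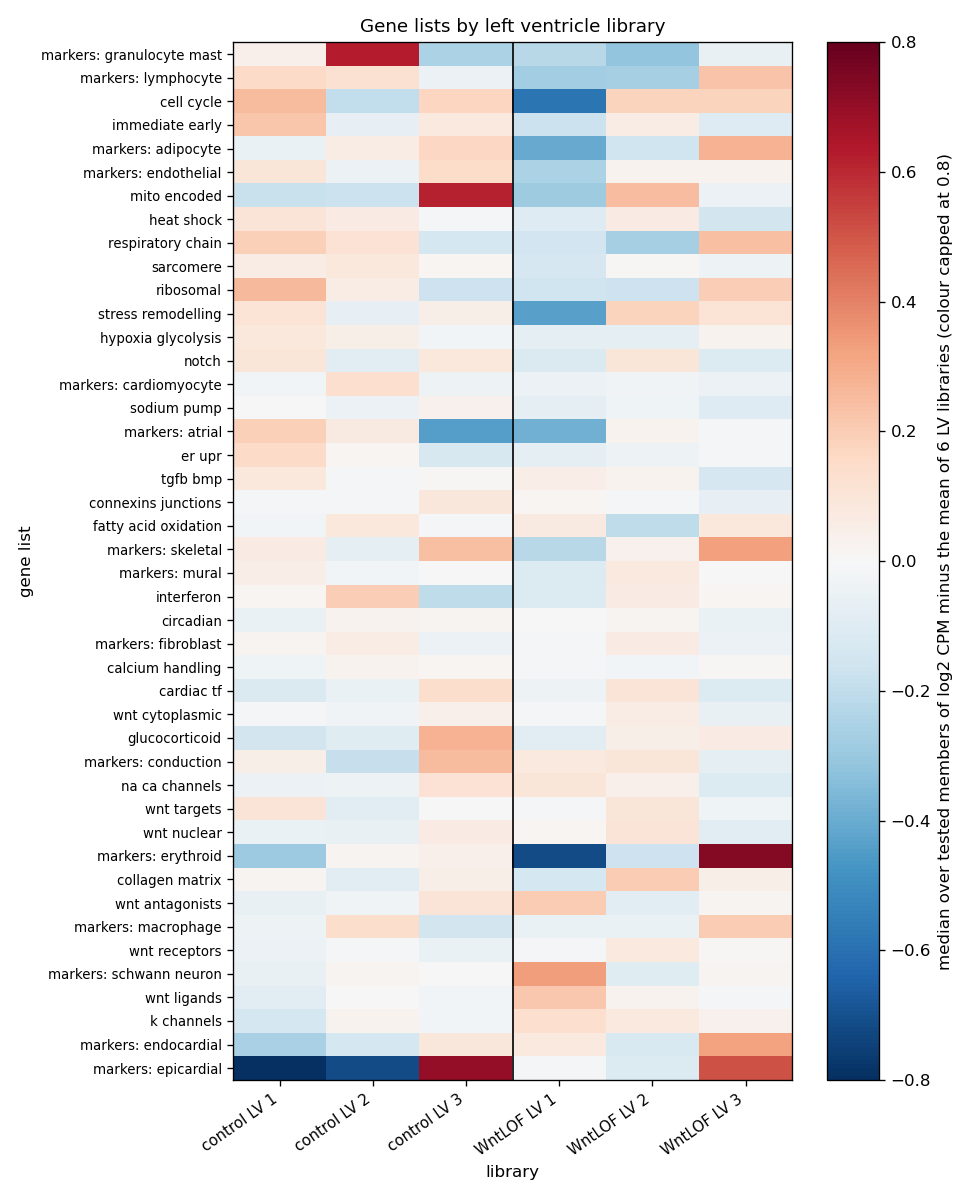
Median over the tested members of each of 44 gene lists of log2 CPM minus the mean of the 6 LV libraries, by library, with lists ordered by the difference between the group means of these medians. The black line divides control from Wnt LOF; cell cycle and red blood cell genes are low in WntLOF LV 1 and mitochondrially encoded genes are high in control LV 3.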

How the data were processed

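Values deposited by the authors are unnormalised read counts for each Ensembl gene. The submitters' processing notes name featureCounts, Subread and edgeR. The aligner, the versions, the build and the strandedness are not given in the sources, so reads of overlapping or antisense genes may be mixed. Of 41192 rows, 598 repeat an Ensembl gene already listed in an earlier row and were left out, leaving 40594 genes. The authors also deposited a table of their own comparison with log2 fold changes, p-values and adjusted p-values, per the file headers.

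Counts were analysed with edgeR 4.0.16 in R 4.3.3 (TMM, filterByExpr by group, robust quasi-likelihood fit of 1 mean per group over 12 libraries, Benjamini-Hochberg over 15494 genes, threshold 0.05), with DESeq2 1.42.0 as an alternative. The standard error is the log2 fold change over the square root of F. Groups come from the labels. The code was tested on simulated data. Deviations of same-numbered control and Wnt LOF LV libraries had correlations of -0.043, -0.0903 and 0.233. The highest, 0.321, was that of control LV 2 with WntLOF LV 1, so no pairing was used. Pairing of LV with RV libraries of the same number was not tested, and the model treats them as independent. In the controls, levels of Gm5514 and Hsd17b7 followed the library number in both ventricles. Gm5514 had 11.2, 0.685 and 11 CPM in control LV 1 to 3 and 12.2, 0.53 and 13.9 CPM in control RV 1 to 3. Hsd17b7 had 1.65, 13.5 and 1.66 CPM and 1.84, 19.7 and 1.44 CPM. If the ventricles share hearts, the p-values of the interaction do not allow for it. No 2 libraries of a group agreed within sampling noise (chi-square per degree of freedom of 11.7 or more).

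Genes are named by rule: Axin2, Ctnnb1 and Lef1, the 12 genes per direction described in the text, up to 3 members per list with an unadjusted p under 0.05, a set of heart genes (channels, calcium handling, peptides, motors and transcription factors), and genes that check the labels; 3 genes of the rule are not reported here. Members, rule and the 46 lists, 15 of them cell type markers, were chosen with earlier results of these data known.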

Additional observations from a re-analysis of the deposited data

How the results depend on the processing

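With another scaling, filter, tool or term, and all LV libraries kept, 0 genes were called. The count at an unadjusted p under 0.05, 442 in the model described, ran from 323 (DESeq2) to 637 (no filter on low counts), with 450 with DESeq2 size factors, 482 with total counts, 394 with a 1 CPM minimum and 577 with a term for Y-linked reads. The LV libraries alone gave 384. Leaving out single libraries gave 285 (without control LV 1) to 888 (without WntLOF LV 3) and 0 called. With the replicate number as a block 0 genes were called, with 544 at an unadjusted p under 0.05 in all libraries and 303 in the LV libraries alone. In the LV libraries alone without control LV 2 and WntLOF LV 1, a fit added after seeing the data, 1 gene was called, Gm5514 (log2 fold change -3.86, SE 0.27, adjusted p 0.00899 by edgeR), and 293 had an unadjusted p under 0.05. Gm5514 is among the genes chosen for a difference between the same libraries. Control LV 2 was left out in part for its level of Gm5514. The outcome was thus all but fixed in advance, and the call is no evidence for a difference. The cause of the changes in these counts was not tested.

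Without single libraries the lowest and highest log2 fold changes were Axin2 -0.13 to 0.39, Ddx3y -6.99 to 5.80, Hcn4 -0.27 to 0.37, Hey2 -0.16 to 0.27, Irx5 -0.32 to 0.17, Kcna5 -0.30 to 0.16, Kcnd2 -0.11 to 0.83, Kcnj2 -0.014 to 0.28, Nppa -0.17 to 0.48, Ryr2 -0.059 to 0.20, Tbx5 -0.037 to 0.49, Wif1 -0.78 to 1.46 and Xist -0.49 to 0.67. Without control LV 2 and WntLOF LV 1 (likewise without WntLOF RV 1, or in the LV libraries alone) Axin2 had -0.25 (-0.25, -0.25), Tbx5 -0.0046 (-0.0041, -0.0044), Wif1 -0.81 (-0.81, -0.82) and Irx5 0.0688 (0.0698, 0.0708). With 3 libraries a group and a median standard error of 0.135, differences well above their standard error did not pass the test either. Ednrb, at -0.66 (SE 0.15), had an adjusted p of 0.999 by edgeR. The lack of called genes is therefore not evidence that the groups were alike.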

Other observations

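Pdk4, a kinase that holds back the use of pyruvate in mitochondria, had 619, 557 and 541 CPM in control LV 1 to 3 and 763, 297 and 313 CPM in WntLOF LV 1 to 3. WntLOF LV 2 and 3 lay below every control and WntLOF LV 1 above every control. The log2 fold change was -0.32 (SE 0.32) in the model described and -0.93 (SE 0.18) without control LV 2 and WntLOF LV 1, with an adjusted p of 1 by edgeR. In the RV the control libraries had 894 to 1300 CPM and the Wnt LOF libraries 376 to 478 CPM. Pdk4 was named after its values were seen, and it is among the genes that checked the ventricle labels.

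Cnnm1, a membrane protein of the cyclin M family, had 33.4, 25.3 and 24.1 CPM in the controls and 60.0, 53.5 and 61.0 CPM in Wnt LOF. All 3 Wnt LOF libraries lay above every control, the log2 fold change was 1.07 (SE 0.48), and the unadjusted p was 0.051 by edgeR. In the RV the Wnt LOF libraries had 36.3, 26.4 and 119 CPM and the controls 39.6 to 43.0 CPM.

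Plekhh2 had 3309 CPM in WntLOF LV 3 and 22.1 to 134 CPM in the other 5 LV libraries. Baiap2l1 had 104 CPM in control LV 3 and 12.3 to 16.2 CPM in the other 5. These genes were named after their values were seen.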
